A study of Homo sapiens with 12 samples.

Results

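SAA1, SAA2, LCN2, C3 and CFB are 5 genes of the acute-phase and innate defence response that epithelial cells can express, and they were followed across 4 stable lines of HCT116, a human colorectal cancer cell line. They were chosen by their measured levels in these libraries, SAA1 being highest in cells with EHF alone, and were found by gene symbol. All 5 are among the 28395 genes of the deposited count table and among the 15853 genes that reached 0.5 CPM, a read count scaled to library size, in at least 3 libraries. Their levels and differences between lines are therefore a description, and no p-value is given for them.

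The RNA-seq experiment asked how re-expression of the transcription factors EHF and CDX1, alone and together, changes a poorly differentiated colorectal cancer cell. HCT116-EV cells carried an empty pcDNA3.1 plasmid and HCT116-EHF cells an EHF plasmid on the same backbone, and both were geneticin-resistant clones. HCT116-CDX1 cells carried a CDX1 retrovirus with a GFP marker and were sorted for GFP. HCT116-EHF+CDX1 cells were geneticin-resistant clones of CDX1 cells transfected with the EHF plasmid, so vector and selection differ between lines together with the factors and cannot be told apart from them. Each line had 3 libraries, 12 in all, and the sources do not tie each library to a separate culture (the study's text speaks of biological replicates for its RNA-seq, in a number that differs from the libraries per line), so p-values measure only the spread between these libraries, which may be technical.

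EHF is an epithelial transcription factor of the ETS family, and CDX1 is an intestinal homeobox factor. The acute-phase response raises a set of secreted proteins during infection or injury. The liver makes most of what circulates, but gut epithelium makes several of them locally. Interleukin-1 and interleukin-6 family cytokines, interleukin-17 and interleukin-22 are the usual inducers, acting through NF-kB with its cofactor IkB-zeta, STAT3 and C/EBP factors. The serum amyloid A proteins SAA1 and SAA2 bind lipid and retinol, and lipocalin 2 (LCN2) withholds iron from bacteria by binding their siderophores. C3 is the central protein of complement, and factor B (CFB) forms with it the C3 convertase of the alternative pathway.

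On the GRCh38.p14 assembly, RefSeq places SAA1 at chr11:18266264-18269967, SAA2 at chr11:18238236-18248668, LCN2 at chr9:128149453-128153453, C3 at chr19:6677704-6720650 and CFB at chr6:31946095-31952084. The annotated read-through gene SAA2-SAA4 spans SAA2. CFB begins just downstream of C2, a complement protease gene related to it, and the pair do not overlap. The 250 bases before the start of LCN2 (chr9:128149203-128149452) and of CFB (chr6:31945845-31946094) are printed 5′ to 3′ on the plus strand from RefSeq. SAA1, SAA2 and C3 had no window in the promoter set used here. Capitals mark matches, on either strand, to the ETS core GGAAGT, the CDX core CATAAA, a STAT motif TTCNNNGAA, a C/EBP motif TTGCNNAA and an NF-kB motif GGGRNNNYCC. Here R is A or G, Y is C or T and N is any base.
LCN2: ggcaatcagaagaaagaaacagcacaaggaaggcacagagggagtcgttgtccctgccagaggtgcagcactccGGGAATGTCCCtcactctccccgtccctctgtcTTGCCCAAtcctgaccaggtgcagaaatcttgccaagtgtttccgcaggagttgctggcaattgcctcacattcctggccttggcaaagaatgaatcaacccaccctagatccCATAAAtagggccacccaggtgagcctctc
CFB: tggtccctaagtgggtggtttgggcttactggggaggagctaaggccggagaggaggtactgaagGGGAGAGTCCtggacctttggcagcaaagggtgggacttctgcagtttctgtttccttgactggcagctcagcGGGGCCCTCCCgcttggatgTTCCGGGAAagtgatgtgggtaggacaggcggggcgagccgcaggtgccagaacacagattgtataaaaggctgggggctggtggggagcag
The NF-kB motif was widened by a base type at its centre after these sequences had been seen. Its matches in them, and its share of promoters below, are of the widened form and were not fixed in advance. LCN2 held a CDX core at 30 to 25 bases before the start, a C/EBP motif at 143 to 136 and an NF-kB match starting 176 bases before it, where matches on both strands share 9 bases. CFB held a STAT motif at 92 to 84 bases before the start and NF-kB matches starting at 185 and 112 bases before it, the latter with a second on the other strand that shares 9 bases. No match to GGAAGT, the only ETS pattern searched for, was found in either window, and the shorter GGAA occurs in both. Among 35114 RefSeq promoter windows of the same length, 18.5% held the NF-kB motif, 9.05% the C/EBP motif, 6.57% the STAT motif, 9.64% the CDX core and 19.5% the ETS core. These matches are letters in a window, and binding is not analysed here.

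Total counts ranged from 13523007 to 74186741 reads per library, and 3 reads, the most that a count of 0 allows, corresponded to between 0.0375 and 0.207 CPM after TMM normalisation. Intervals and limits of this kind cover counting error only. EHF was at 237 to 335 CPM in EV and 11.9 to 13.0 CPM in CDX1 libraries, and at 17115 to 19890 CPM in all 6 libraries of lines given the EHF plasmid. CDX1 was at 487 to 559 CPM in CDX1 libraries, 5108 to 5639 CPM in EHF+CDX1 libraries and at most 4 reads elsewhere. The EV library of replicate 3 stood apart from the other 2: 16.1% of tested genes were at least 2 times higher in it than their mean and 6.76% were at most 0.5 times as high. The chi-square per degree of freedom between libraries was 329 and 299 for this library against EV replicates 1 and 2, but 4.29 between those. LCN2, C3 and CFB were 7.69, 2.33 and 3.88 times as high in it as in the mean of the other 2, so values over EV that it changes are also given without it. Of 10 colonic epithelial markers, 8 had a mean of at least 1 CPM in EV, EHF and CDX1 cells and all 10 in EHF+CDX1 cells. Of 12 hepatocyte markers CPS1 alone reached 1 CPM in any line. Of 12 fibroblast and endothelial markers 1 or 2 reached it in each line, COL1A1 being the highest. In bulk RNA, a change in the share of expressing cells and a change in RNA per cell cannot be told apart.

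SAA1 separated the lines given the EHF plasmid from the lines without it, although EV cells also held EHF RNA. It had 0, 0 and 3 reads in EV replicates 1 to 3 and 3, 4 and 4 reads in the CDX1 libraries. In EHF cells it was at 68.6, 71.8 and 73.2 CPM (1289, 3417 and 5856 reads), a mean of 71.2 ± 2.36 CPM (SD, n = 3). In EHF+CDX1 cells it was at 31.7, 37.5 and 38.22 CPM, a mean of 35.8 ± 3.58 CPM. The lines with the EHF plasmid did not overlap those without it. Of the lines with it, EHF+CDX1 cells lay below EHF cells in every library. Pooling the reads of a line, SAA1 was 2375 times as high in EHF as in EV cells (95% counting interval 812 to 11516) and 1148 times as high in EHF+CDX1 cells (393 to 5571). For CDX1 over EV cells the pooled ratio was 2.92 with an interval from 0.771 to 16.3, so a difference was not detectable at this depth. All EV reads of SAA1 came from replicate 3. Without it EV had 0 reads, and SAA1 was at least 525-fold higher in EHF and 264-fold higher in EHF+CDX1 cells than the EV value that 3 reads per library allow. The counting interval for CDX1 over EV then began at 0.897, although the fit called this difference. The fitted difference between EHF+CDX1 and EHF cells was -0.99 ± 0.14 (log2 fold change ± SE).

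SAA2, whose product is close in sequence to that of SAA1, had the same order of lines at lower levels. It was at 6.76, 6.05 and 6.97 CPM in EHF cells and at 5.40, 5.54 and 4.01 CPM in EHF+CDX1 cells. EV libraries had 1, 0 and 4 reads and CDX1 libraries 3, 7 and 1 reads, and these ranges overlapped. The pooled ratio to EV was 131 in EHF cells (counting interval 56.05 to 405) and 105 in EHF+CDX1 cells (44.6 to 323). EV replicate 3 held 4 of the 5 EV reads, and without it these ratios were 295 (52.8 to 11651) and 235 (42.01 to 9291), on 1 EV read. The ranges of EHF and EHF+CDX1 cells did not overlap, with a fitted difference of -0.39 ± 0.28 that is close in size to its error. There were 10.1, 11.9 and 10.5 SAA1 reads per SAA2 read in EHF libraries and 5.87, 6.76 and 9.53 in EHF+CDX1 libraries, again without overlap. Reads of this pair are not fully separable. Their GENCODE reference transcripts were identical at 494 of 518 aligned bases (95.4%), and 10.0% of all 150-base windows of SAA1 also occur in an SAA2 transcript, against 40.9% of 50-base windows. Only uniquely mapped reads were counted, so both levels and their ratio are uncertain to that extent. SAA2 also lies within the read-through gene SAA2-SAA4, and how reads on shared exons were assigned was not examined. The level of SAA2 and the ratio are uncertain for that reason as well. SAA4, the constitutively expressed family member of liver, was not tested and had at most 8 reads in any library. Its reads came to 13 in EHF cells, 12 in EHF+CDX1 cells and 0 in EV and CDX1 cells. SAA2-SAA4 had 3 reads in 1 EHF library and 0 in the other 11.

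LCN2 was highest in EHF+CDX1 cells. EHF+CDX1 libraries were at 87.8, 81.4 and 83.3 CPM, a mean of 84.1 ± 3.30 CPM (SD, n = 3). EHF libraries were at 32.98, 32.98 and 35.6 CPM and CDX1 libraries at 9.003, 13.0 and 10.1 CPM. The 3 lines with a factor did not overlap each other. EV replicates 1 and 2 were at 4.52 and 3.69 CPM, below every other library, while EV replicate 3 was at 31.6 CPM, just under the EHF libraries and above the CDX1 libraries. With all 3 EV libraries, the log2 fold change over EV was 1.30 ± 0.58 in EHF cells, -0.36 ± 0.59 in CDX1 cells and 2.61 ± 0.60 in EHF+CDX1 cells. Without EV replicate 3 these were 3.04 ± 0.15, 1.37 ± 0.15 and 4.35 ± 0.15, so the sign in CDX1 cells turned with that library. EHF+CDX1 cells differed from EHF cells by 1.31 ± 0.58 and from CDX1 cells by 2.97 ± 0.62. SLC22A17, the gene of a lipocalin 2 receptor, lay between 6.03 and 15.4 CPM over all libraries, the highest being EV replicate 3, and passed the test in none of the 5 comparisons.

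CFB was highest with CDX1 alone. CDX1 libraries were at 9.13, 9.78 and 5.20 CPM, a mean of 8.04 ± 2.48 CPM (SD, n = 3), and EHF+CDX1 libraries at 4.35, 5.84 and 3.94 CPM. These ranges overlapped, with a fitted difference of -0.76 ± 0.40. EHF libraries were at 1.33, 1.79 and 1.62 CPM and EV libraries at 0.560, 0.237 and 1.54 CPM, and these ranges also overlapped, through EV replicate 3. The log2 fold change over EV was 3.19 ± 0.46 in CDX1, 2.43 ± 0.45 in EHF+CDX1 and 0.86 ± 0.46 in EHF cells. Leaving out EV replicate 3 raised them to 4.30 ± 0.39, 3.56 ± 0.41 and 1.99 ± 0.46. All 6 libraries of lines with CDX1 were above all 6 libraries without it.

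C3 had the smallest range of line means of the 5 genes, 1.17 to 3.09 CPM. EHF libraries were at 3.19, 2.79 and 2.86 CPM and CDX1 libraries at 3.33, 3.13 and 2.80 CPM, and these ranges overlapped. EHF+CDX1 libraries were lower, at 1.80, 1.71 and 2.07 CPM, and did not overlap either line with a single factor. EV libraries were at 0.775, 0.852 and 1.89 CPM, and replicate 3 lay within the EHF+CDX1 range. The log2 fold change over EV was 1.25 ± 0.29 in EHF, 1.32 ± 0.29 in CDX1 and 0.57 ± 0.30 in EHF+CDX1 cells. With EV replicate 3 left out, it was 1.84 ± 0.25, 1.92 ± 0.25 and 1.16 ± 0.26. EHF+CDX1 cells differed from EHF cells by -0.67 ± 0.28 and from CDX1 cells by -0.75 ± 0.28. C3 had 18 to 229 reads per library.

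**Figure D1:**
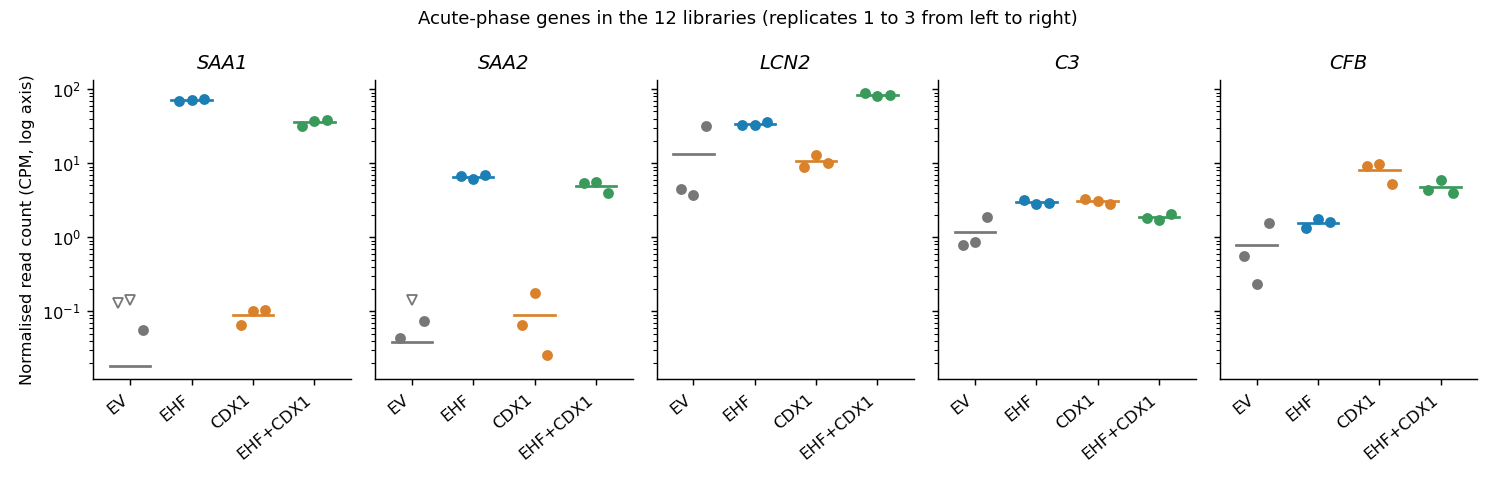
Normalised read counts (CPM, log axis) of the 5 genes in the 12 libraries, replicates 1 to 3 from left to right within each line. Filled circles are libraries, horizontal bars are line means, and open triangles mark the value of 3 reads in a library where no read was counted. SAA1 and SAA2 are high in both lines with the EHF plasmid, and LCN2 is highest in EHF+CDX1 cells (81.4 to 87.8 CPM). CFB is highest in CDX1 cells, and EV replicate 3 lies above EV replicates 1 and 2 for LCN2, C3 and CFB.

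**Figure D2:**
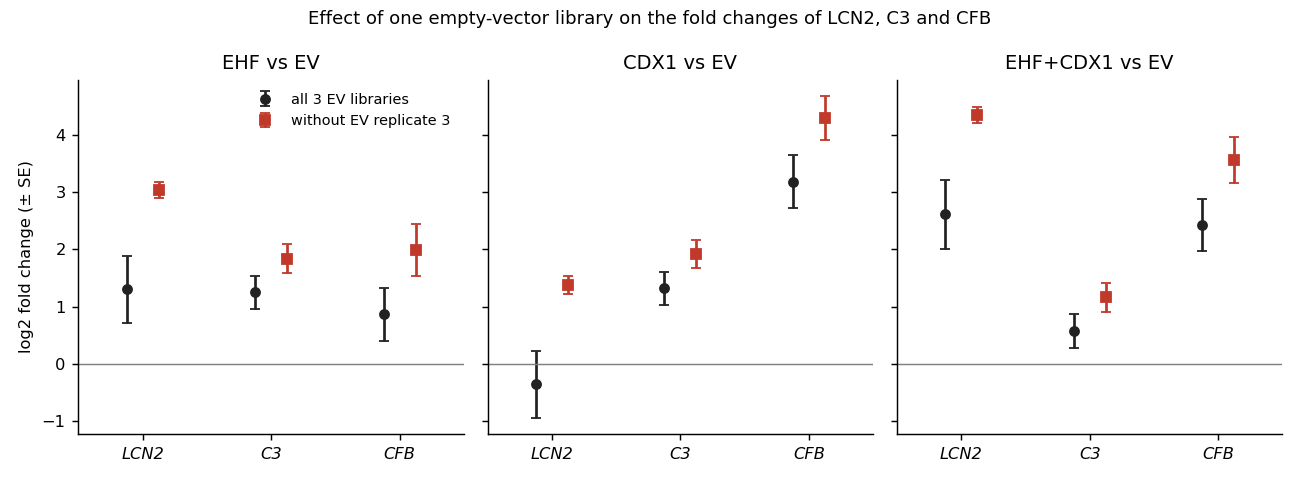
Log2 fold change over EV of LCN2, C3 and CFB in EHF, CDX1 and EHF+CDX1 cells, with the standard error of the fit as bars. Black circles use all 3 EV libraries and red squares leave out EV replicate 3, without which all 9 values are higher and LCN2 in CDX1 cells moves from -0.36 to 1.37.

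A gene was called higher or lower where edgeR's test against a 1.5-fold change passed at a Benjamini-Hochberg adjusted p of 0.05 over all 15853 genes. Since these contrasts chose the members, their counts of calls are printed beside the share of all genes called and nothing is read from them. In EHF against EV cells, SAA1 and SAA2 were called higher and none of the 5 lower, while 5.68% of all genes were called higher and 2.65% lower. In CDX1 against EV cells, C3 and CFB were called higher and none lower, beside 21.3% and 23.3% of all genes. In EHF+CDX1 against EV cells, 4 members, C3 being the exception, were called higher and none lower, beside 7.30% and 3.13%. Against EHF cells, EHF+CDX1 cells had no member called higher and SAA1 called lower, beside 2.49% and 0.189%. Against CDX1 cells they had SAA1, SAA2 and LCN2 called higher and none lower, beside 22.3% and 18.7%. The comparisons with EV share their control libraries. When EV replicate 3 was left out, the members called higher over EV were all 5 in EHF cells, 4 in CDX1 cells (SAA2 being the exception) and all 5 in EHF+CDX1 cells, beside 9.51%, 26.3% and 11.2% of the 15758 genes then tested. The lower call of SAA1 in EHF+CDX1 against EHF cells held in 8 of 20 alternative fits and in 3 of the 12 that left out a library. These 3 left out EV libraries, and leaving out any other library ended the call. LCN2 in EHF+CDX1 over EV cells was called in 15 of 20 and lost its call when any EHF+CDX1 library was left out.

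Levels of different genes were compared on the deposited log2 RPKM scale, which divides by gene length. In EHF cells the mean level of SAA1 was 6.79 ± 0.04 log2 RPKM (SD, n = 3), the highest of the 5, followed by LCN2 at 5.38 ± 0.07, SAA2 at 1.37 ± 0.11, CFB at -0.76 ± 0.21 and C3 at -0.88 ± 0.08. CFB and C3 did not differ there beyond their spread. In EHF+CDX1 cells LCN2 led at 6.75 ± 0.05 log2 RPKM and SAA1 followed at 5.73 ± 0.16, while SAA2 (0.93 ± 0.27) and CFB (0.68 ± 0.30) were within their spread. In CDX1 cells LCN2 was highest at 3.90 ± 0.24, followed by CFB at 1.81 ± 0.48 and C3 at -0.46 ± 0.15. LCN2 was also highest in EV cells, at 3.38 ± 1.67, a spread set by replicate 3. SAA1 in EHF cells was above 97.0% of the 15853 genes on this scale and LCN2 in EHF+CDX1 cells above 96.9%, whereas C3 in CDX1 cells, its highest line, was above 20.6%.

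**Figure D3:**
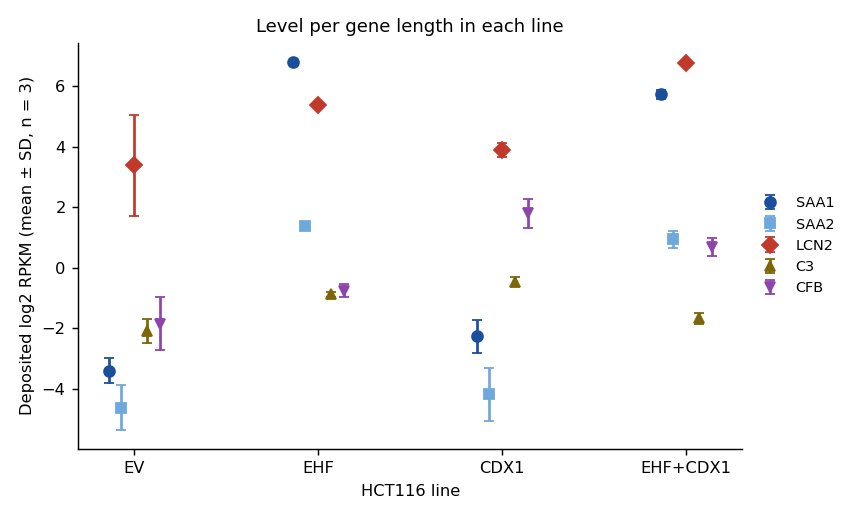
Deposited log2 RPKM (mean and SD of 3 libraries) of the 5 genes in each HCT116 line. SAA1 moves from -3.41 in EV to 6.79 in EHF cells, LCN2 is highest of the 5 in EV, CDX1 and EHF+CDX1 cells, and C3 stays between -2.09 and -0.46.

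Over the 12 libraries, log2 CPM of SAA1 correlated with that of SAA2 (Pearson r = 0.99) and LCN2 (0.83), less with C3 (0.38) and CFB (0.16), and C3 correlated with CFB at 0.68. These values describe 4 lines of 3 libraries each and are not independent points. The genes most like SAA1 by the same measure were RHOBTB3 (r = 0.998), CCDC71L (0.995), ANKRD22 (0.993), RHCG (0.993) and KRTAP9-4 (0.992). RHOBTB3 was at a mean of 22.1 CPM in EV, 126 in EHF, 30.2 in CDX1 and 103 in EHF+CDX1 cells. RHCG, an ammonia transporter gene, had 0 CPM in EV and CDX1 cells and means of 2.71 and 1.49 CPM in EHF and EHF+CDX1 cells. SAA2 was most like CSF2RB (0.993), the common beta subunit of the GM-CSF, interleukin-3 and interleukin-5 receptors. LCN2 was most like GALNT5 (0.983) and TAP1 (0.976), the latter a peptide transporter of antigen presentation. C3 was most like LOC286059 (0.978) and SELPLG (0.974), and CFB was most like FAM83E (0.987) and MMP1 (0.977), a collagenase gene. BIRC3, an NF-kB target gene, was also among the 5 most like CFB (0.971), at means of 6.93, 14.5, 49.7 and 28.9 CPM in EV, EHF, CDX1 and EHF+CDX1 cells.

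Around the 5 members, 195 other genes on 4 lists of the same routes were counted, of which 102 were tested. In EHF over EV cells 11 (10.8%) were called higher and 1 (0.98%) lower, in CDX1 over EV cells 40 (39.2%) and 17 (16.7%), and in EHF+CDX1 over EV cells 18 (17.6%) and 0, beside the shares of all genes given above. Without EV replicate 3 these became 31 and 1, 47 and 10, and 37 and 0. The shares of all genes were then 9.51% and 3.46%, 26.3% and 24.8%, and 11.2% and 4.28%. EHF+CDX1 cells had 7 called higher and 0 lower against EHF cells, beside 2.49% and 0.189% of all genes. Against CDX1 cells 24 were higher and 29 lower, beside 22.3% and 18.7%. Their median log2 fold change over EV was 0.23 in EHF, 0.54 in CDX1 and 0.31 in EHF+CDX1 cells, where the median of all tested genes lay between -0.04 and -0.03. Leaving out an EHF library lowered the 12 calls of EHF over EV cells to as few as 7 (without replicate 1), and leaving out EHF+CDX1 replicate 1 lowered the 18 calls of that line to 8. The shares of all genes called were then 6.68%, against 8.33%, and 7.2%, against 10.4%.

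Of 53 complement components and regulators, 22 were tested. Over EV cells 4 (18.2%, beside 5.68% of all genes) were called higher in EHF cells, 9 higher (40.9%, beside 21.3%) and 7 lower (31.8%, beside 23.3%) in CDX1 cells, and 3 higher (13.6%, beside 7.30%) in EHF+CDX1 cells. With EV replicate 3 left out, these counts were 10, 10 and 3, and 6, beside 9.51%, 26.3% and 24.8%, and 11.2% of all genes. C2, the neighbour of CFB and its counterpart in the classical pathway, was at 10.95, 13.996 and 10.9 CPM in CDX1 libraries and between 0.517 and 2.06 CPM in the other 9. It rose with CDX1 alone (log2 fold change 3.30 ± 0.39, adjusted p = 2.89e-05) and was lower in EHF+CDX1 than in CDX1 cells (-3.13 ± 0.38, adjusted p = 5.18e-05), and without EV replicate 3 it was called higher in EHF cells too (1.38, adjusted p = 0.0237) and had 4.23 in CDX1 cells. CFB stayed at 3.94 CPM or more in EHF+CDX1 libraries. CD55, which speeds the decay of C3 convertases at the cell surface, was at 808, 707 and 636 CPM in CDX1 cells and at 83.1 to 88.8 CPM in EHF and EHF+CDX1 cells. It rose in CDX1 cells by 3.21 ± 0.59 (adjusted p = 0.000939), or by 4.70 without EV replicate 3. EV libraries were at 25.8, 29.2 and 176 CPM, and without replicate 3 CD55 was called higher in the other 2 lines as well, by 1.66 in EHF and 1.62 in EHF+CDX1 cells (adjusted p = 3.54e-09 and 4.76e-09). CD59, which blocks the terminal complement pore, rose in CDX1 cells by 1.48 ± 0.24 (adjusted p = 0.00123) and without EV replicate 3 was also called in EHF+CDX1 cells (0.84, adjusted p = 0.015). CD46, a cofactor for C3b cleavage, had -0.53 ± 0.21 in CDX1 cells (adjusted p = 0.528).

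CFD, the protease that activates factor B, fell in CDX1 cells, from 37.9 to 63.1 CPM in EV libraries to 13.1 to 13.5 CPM (-1.99 ± 0.15, adjusted p = 2.42e-06). CLU, a secreted chaperone that also restrains the terminal complex, rose from a mean of 196 CPM in EV to 5923 CPM in CDX1 cells (4.92 ± 0.14, adjusted p = 6.96e-10). In EHF cells CLU was called higher at 0.91 ± 0.12 (adjusted p = 0.0321), a call lost with DESeq2 and when any EHF library or EV replicate 1 or 2 was left out. SERPING1, the C1 inhibitor gene, was at 5.05, 4.75 and 4.60 CPM in EHF cells, 4.87, 3.83 and 3.94 CPM in EHF+CDX1 cells and 0.175, 0.126 and 0 CPM in CDX1 cells. It was at 0.215, 0.189 and 1.16 CPM in EV cells, so like SAA1 it was high in both lines with the EHF plasmid. It rose by 2.97 ± 0.54 in EHF cells (adjusted p = 0.00553) and by 2.79 ± 0.54 in EHF+CDX1 cells (adjusted p = 0.00701), the latter call being lost with only these 2 lines fitted (adjusted p = 0.0518), and without EV replicate 3 by 4.53 and 4.37. Its lower call in CDX1 cells (-2.52 ± 0.75, adjusted p = 0.0215) was lost without EV replicate 3 or CDX1 replicate 3, with only 2 lines fitted and on the deposited log2 RPKM. C1R, a protease of the classical pathway, was called higher in all 3 lines (0.95 to 1.76), but the call in EHF cells was lost in 4 of 20 alternatives (limma voom, DESeq2, only 2 lines fitted and the deposited log2 RPKM) and that in EHF+CDX1 cells in all but 5 of 20, EV replicates 1 and 3 and every EHF+CDX1 library being among those whose absence ended it.

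ITGAM, the alpha chain of the receptor for cleaved C3, was at 25.9, 24.6 and 24.7 CPM in EHF, 10.6, 7.68 and 10.4 CPM in CDX1 and 13.9, 15.4 and 15.3 CPM in EHF+CDX1 cells, against 0.237 to 1.25 CPM in EV cells. It rose by 4.97 ± 0.33 in EHF cells (adjusted p = 1.46e-06), 3.58 ± 0.33 in CDX1 cells (adjusted p = 3.58e-06) and 4.21 ± 0.33 in EHF+CDX1 cells (adjusted p = 4.16e-06), and without EV replicate 3 by 5.86, 4.47 and 5.10. ITGAM is also on the list of 12 neutrophil and macrophage markers, of which 3 had a mean of at least 1 CPM in EHF, CDX1 and EHF+CDX1 cells and 1 in EV cells. Their summed level was 2.84 to 12.4 CPM in EV, 40.6 to 42.6 in EHF, 91.7 to 101 in CDX1 and 56.02 to 62.1 in EHF+CDX1 libraries. CD68, a lysosomal protein of macrophages, was at a mean of 5.27 CPM in EV, 13.2 in EHF, 81.3 in CDX1 and 23.3 in EHF+CDX1 cells. PTPRC, which marks all leukocytes, had 0 reads in EHF cells but not in the other 3 lines, and FCGR3B had 0 in all 4. In EV cells MPO, CSF3R and AIF1 were at 0 reads as well. All libraries came from lines of HCT116, a colorectal cancer cell line, so these values are read as gene levels in those lines. No share of leukocytes was measured. C5 was below 1.2 CPM in every library, and its lower call in CDX1 cells (-2.22 ± 0.71, adjusted p = 0.0328) was lost in 8 of 20 alternatives, those without EV replicate 3 or any CDX1 library among them. C4A and C4B, near-identical copies between which reads can be split, were below 1.5 CPM throughout. CFI, C3AR1 and FPR2, the last a receptor for SAA1, were not tested and had at most 16 reads in any library.

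Of 33 other acute-phase proteins, 9 were tested, and 2, 4 and 2 were called higher over EV in EHF, CDX1 and EHF+CDX1 cells, with 1 lower in CDX1 cells. Beside 5.68%, 21.3% and 7.30% of all genes, these were 22.2%, 44.4% and 22.2% of those tested. Without EV replicate 3 the counts were 6, 5 and 5 higher and 0 lower. The shares called higher were then 66.7%, 55.6% and 55.6%, beside 9.51%, 26.3% and 11.2% of all genes. LRG1, a secreted glycoprotein of the acute phase, rose in all 3 lines, by 2.15 ± 0.38 (adjusted p = 0.00691), 2.04 ± 0.38 (adjusted p = 0.00195) and 2.03 ± 0.39 (adjusted p = 0.00869), and without EV replicate 3 by 3.03, 2.92 and 2.93. With only 2 lines fitted its calls in EHF and EHF+CDX1 cells were lost (adjusted p = 0.0577 and 0.0773). Its libraries lay at 1.84 to 3.09 CPM in those lines and at 0.301 to 1.01 CPM in EV. SERPINA1, the alpha-1 antitrypsin gene, was, like LCN2, highest with both factors, at 6.64, 6.64 and 4.22 CPM in EHF+CDX1, 2.35 to 3.03 CPM in EHF and 1.23 to 1.56 CPM in CDX1 cells. It rose in EHF+CDX1 cells by 1.89 ± 0.33 over EV (adjusted p = 0.00551; 0.0605 with only 2 lines fitted) and by 2.10 ± 0.33 over CDX1 cells (adjusted p = 0.000611). When EV replicate 3 was left out, it had 2.56 in EHF+CDX1 cells and was also called in EHF cells (1.43, adjusted p = 0.00814). HPX, which binds heme, and FTL, the ferritin light chain, rose in CDX1 cells, by 1.84 ± 0.40 (adjusted p = 0.00553) and 3.33 ± 0.25 (adjusted p = 8.26e-07). The other 2 lines had between 0.27 and 0.43 for this pair and passed no test with all EV libraries. Without EV replicate 3 HPX was called higher in all 3 lines, by 1.39 in EHF (adjusted p = 0.0215), 2.86 in CDX1 and 1.28 in EHF+CDX1 cells (adjusted p = 0.0406).

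Of 59 genes of the interleukin-1, interleukin-6, interleukin-17 and interleukin-22 routes, 52 were tested. Over EV cells 5 were called higher and 1 lower in EHF cells, 26 and 5 in CDX1 cells, and 8 and 0 in EHF+CDX1 cells. The shares called higher were 9.62%, 50% and 15.4%, beside 5.68%, 21.3% and 7.30% of all genes, and that called lower in CDX1 cells was 9.62% beside 23.3%. With EV replicate 3 left out, the counts were 12 and 1, 28 and 4, and 19 and 0. The shares called higher were then 23.1%, 53.8% and 36.5%, beside 9.51%, 26.3% and 11.2% of all genes. Those called lower were 1.92%, 7.69% and 0%, beside 3.46%, 24.8% and 4.28%. The cytokine genes themselves were low. IL6 had at most 6 reads and IL1B at most 18 in any library, and neither was tested. IL1A was below 1.8 CPM throughout and rose in CDX1 cells by 4.33 ± 0.72 (adjusted p = 0.00043). TNF, at 0, 0 and 5 reads in EV, rose in CDX1 cells to 0.960 to 1.20 CPM (4.39 ± 0.75, adjusted p = 0.000488), and its call in EHF+CDX1 cells (3.21 ± 0.81, adjusted p = 0.0294) was lost in 8 of 20 alternatives, those without EV replicate 1 or 2 or EHF+CDX1 replicate 1 or 3 among them. When EV replicate 3 was left out, EV had 0 reads of TNF and it was called higher in all 3 lines. IL6R, a receptor subunit for interleukin-6, was at 105, 69.8 and 74.2 CPM in CDX1 cells, 19.4 to 20.2 in EHF, 12.9 to 17.8 in EHF+CDX1 and 4.35 to 13.5 in EV cells. It rose in CDX1 cells by 3.32 ± 0.34 (adjusted p = 8.36e-06; 3.93 without EV replicate 3) and was lower in EHF+CDX1 than in CDX1 cells by -2.49 ± 0.32 (adjusted p = 0.000112). Without EV replicate 3 it was also called higher in EHF (1.86) and EHF+CDX1 cells (1.41). Its signalling partner IL6ST rose in CDX1 cells by 1.42 ± 0.16 (adjusted p = 0.000141). IL1R1 and STAT3, the latter at 97.1 to 132 CPM in all libraries, passed the test in none of the 5 comparisons.

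Of the factors that act on acute-phase promoters, NFKBIZ, CEBPB and CEBPD were highest in CDX1 cells. NFKBIZ, which encodes IkB-zeta, was at 47.9, 29.1 and 35.8 CPM in CDX1 cells and below 9 CPM in every other library, a rise of 2.72 ± 0.29 (adjusted p = 1.9e-05). CEBPB was at 121 to 132 CPM in CDX1 libraries and 24.2 to 62.8 elsewhere, and CEBPD was at 41.3 to 44.2 CPM in CDX1 libraries and 13.7 to 18.4 elsewhere. They rose by 1.75 ± 0.29 (adjusted p = 0.00104) and 1.24 ± 0.08 (adjusted p = 2.42e-06). In EHF cells, where SAA1 was highest, the values over EV were -0.55 ± 0.29 for NFKBIZ, 0.17 ± 0.28 for CEBPB and -0.36 ± 0.08 for CEBPD, and none was called. With EV replicate 3 left out, CEBPB was called higher in EHF (0.78) and EHF+CDX1 cells (0.92), with 2.36 in CDX1 cells. SOCS1, an inhibitor of JAK signalling, rose in all 3 lines, by 1.92 ± 0.15 in EHF (adjusted p = 1.97e-05), 1.38 ± 0.15 in CDX1 (adjusted p = 0.000101) and 1.05 ± 0.15 in EHF+CDX1 cells (adjusted p = 0.0128), the last lost in 5 of 20 alternatives (without EHF+CDX1 replicate 1, with limma voom, DESeq2 or only 2 lines fitted, and on the deposited log2 RPKM). SOCS3, a STAT3 target, rose in CDX1 cells by 1.32 ± 0.14 (adjusted p = 0.000125). HNF4A, a hepatic and intestinal nuclear receptor, fell in EHF cells by 1.57 on the log2 scale (adjusted p = 0.000337) and in CDX1 cells by 1.35 (adjusted p = 0.000248), and had 0.15 ± 0.16 in EHF+CDX1 cells. TNFRSF1B, a TNF receptor gene, and IL1R2, a decoy receptor, had their highest levels in EHF+CDX1 cells, like LCN2. TNFRSF1B was at 11.1 to 13.4 CPM there and at most 0.783 CPM elsewhere, with a log2 fold change over EV of 6.62 ± 0.42 (adjusted p = 6.43e-07), and IL1R2 was at 2.76 to 2.88 CPM, with 4.74 ± 0.62 (adjusted p = 0.00027). When EV replicate 3 was left out, TNFRSF1B had 5.85. CNTFR, a receptor subunit of the interleukin-6 family, had 2 reads in all EV libraries together and was called higher in all 3 lines, with a pooled ratio of 74.0 in CDX1 cells (counting interval 20.2 to 616), and its call in EHF cells was lost in 9 of the 17 alternatives that tested it, those without EV replicate 3 or any EHF library among them. In EHF+CDX1 cells the call was lost in 3 of 17, with 0.97 by limma voom and 0.82 on the deposited log2 RPKM against 3.72. EV replicate 3 held none of the EV reads, and without it the values were 4.95 in CDX1 cells, against 5.96, and 2.71 in EHF+CDX1 cells.

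Of 50 epithelial antimicrobial defence genes, 19 were tested. None was called over EV in EHF cells, 1 was called higher and 4 lower in CDX1 cells, and 5 higher in EHF+CDX1 cells. In CDX1 cells this was 5.26% higher and 21.1% lower, beside 21.3% and 23.3% of all genes, and in EHF+CDX1 cells 26.3%, beside 7.30%. Without EV replicate 3 the counts were 3 higher in EHF, 4 higher and 3 lower in CDX1 and 7 higher in EHF+CDX1 cells. The shares called higher were then 15.8%, 21.1% and 36.8%, beside 9.51%, 26.3% and 11.2% of all genes. The 15.8% called lower in CDX1 cells stood beside 24.8%. LYZ, which encodes lysozyme, was at 19.4, 18.5 and 17.8 CPM in EHF+CDX1 cells and at most 0.266 CPM in every other library, a rise of 7.02 ± 0.36 over EV (adjusted p = 1.12e-07) and of 6.92 ± 0.34 over EHF cells (adjusted p = 4.46e-07). TLR4, the receptor for bacterial lipopolysaccharide, had 0 reads in all 9 other libraries and 103, 75 and 19 reads in EHF+CDX1 cells, at least 13.9-fold higher than the EV value that 3 reads per library allow. CCL20, a chemokine of the gut epithelium, was at 3.65, 5.28 and 3.59 CPM in EHF+CDX1 cells and at 0, 0 and 1.10 CPM in EV cells. It was called higher over EV (3.14 ± 0.79, adjusted p = 0.0288), a call lost when any EHF+CDX1 library was left out and with only 2 lines fitted (adjusted p = 0.194). Its EV reads were all in replicate 3, without which it was also called higher in EHF (adjusted p = 0.000357) and CDX1 cells (adjusted p = 0.00172). These genes shared with LCN2 a highest level in EHF+CDX1 cells. WFDC2, an antiprotease gene, rose in CDX1 cells to 1.34 to 1.49 CPM (3.91 ± 0.71, adjusted p = 0.000841), its EV reads all being in replicate 3, and without that library it was also called in EHF+CDX1 cells (adjusted p = 0.0372). TLR5, the flagellin receptor, and DUOX1, an oxidase that makes hydrogen peroxide, fell in CDX1 cells by 2.93 (adjusted p = 0.000507) and 2.12 (adjusted p = 7.73e-05) on the log2 scale, with -2.30 for TLR5 without EV replicate 3.

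**Figure D4:**
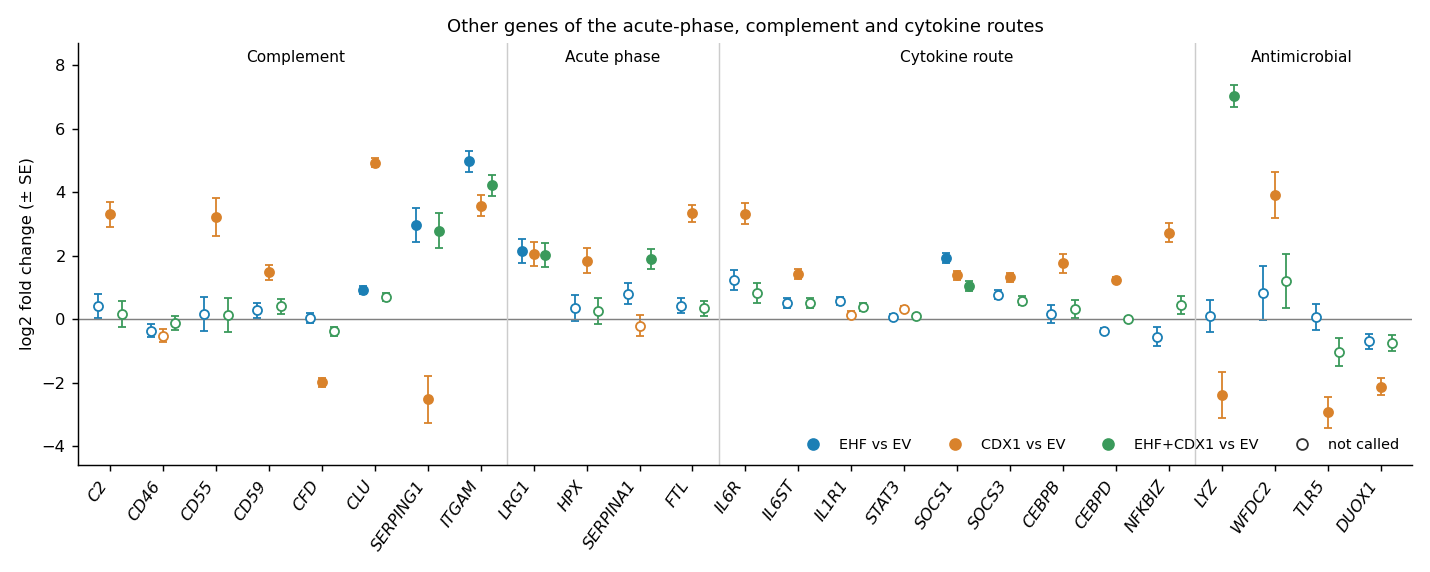
Log2 fold change over EV (with standard error) of named genes on the 4 lists, in EHF (blue), CDX1 (orange) and EHF+CDX1 cells (green). Filled circles passed the test against a 1.5-fold change and open circles did not. CDX1 cells carry most filled circles among complement and cytokine route genes. In these cells 21.3% of all genes were called higher and 23.3% lower, against 5.68% and 2.65% in EHF cells. SERPING1 is high in both lines with the EHF plasmid, and LYZ is high in EHF+CDX1 cells (7.02).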

How the data were processed

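The authors sequenced 12 libraries of 4 HCT116 lines (NEBNext Ultra II Directional kit, paired reads of 150 bases), aligned the reads to hg38 with Subread 2.0.0, kept unique reads and counted them on RefSeq exons with featureCounts 2.0.0, versions as in the submitters' processing notes. A strand setting is not given in the sources used here, so overlapping genes are uncertain. The authors deposited raw counts per gene and library and log2 RPKM values, which they made with limma voom, quantile normalisation and exon length. 0 columns of the tables were left unmapped.

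Tests were run on the counts with edgeR 4.0.16 (R 4.3.3). A filter of 0.5 CPM in at least 3 libraries removed 0.0585% of the reads. After TMM normalisation (factors 0.799 to 1.09), edgeR's quasi-likelihood fit took in all 12 libraries, grouped by line, and genes were called with glmTreat at 1.5-fold and an adjusted p of 0.05. Each adjusted p printed is that of this test, each log2 fold change comes from the same fit, and its standard error is its size divided by the root of F. Fitted log2 values use edgeR's default prior count and depend on it where a line had few reads. Pooled ratios of reads with an exact 95% interval are therefore given there. The interaction compares the difference between EHF+CDX1 and CDX1 cells with that between EHF and EV cells. Likeness between genes is Pearson's r of log2 CPM.

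The members and lists were chosen with earlier results of these data known. Named genes are a set of receptor, ligand and regulator genes of these routes, the 3 genes per list with the largest called change in each comparison with EV (no overlap between libraries, a mean of at least 1 CPM in a line), and genes among the 5 most like SAA1, LCN2, C3 or CFB. CSF2RB, named for SAA2, and the markers singled out were chosen after their values were seen. One gene of the first set is not reported here. Alternatives used limma 3.58.1 and DESeq2 1.42.0. The edgeR, limma voom and DESeq2 tests against a 1.5-fold change were also run on simulated counts, and the other alternatives were not. Positions and promoters came from RefSeq (GRCh38.p14), SAA transcripts from GENCODE release 44. The authors' other assays are not analysed here.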

Additional observations from a re-analysis of the deposited data

Results flagged for a closer look

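For 25 of the named genes outside the 5 members, an interaction term passed (edgeR, test against a 1.5-fold change, adjusted p under 0.05 over all tested genes). Each value is the log2 fold change of EHF+CDX1 over CDX1 cells minus that of EHF over EV cells, with 3 libraries per line. CDX1 RNA was higher in EHF+CDX1 than in CDX1 cells, and EHF RNA was lower in CDX1 than in EV cells. The term is therefore not the effect of EHF at a fixed level of CDX1. Of all 15853 tested genes 20.2% passed with a positive and 18.0% with a negative value, and the named genes are not set apart from these. LYZ (9.32) and CNTFR (-5.30) passed as well but are left out of the 25, since one line had at most 3 reads in each of its libraries and the fitted value then depends on the prior count.

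Among complement genes the interaction was -5.12 for CLU, -4.33 for ITGAM, -3.55 for C2, -3.25 for CD55, -1.91 for C1R and -1.35 for CD59, and it was positive for C5 (3.55) and CFD (1.56). The other acute-phase proteins were negative, at -3.41 for FTL, -2.17 for LRG1 and -1.92 for HPX. In the antimicrobial list WFDC2 had -3.53 and DUOX1 2.06. Among the cytokine route genes the values were -4.06 for TNF, -3.73 for IL6R, -3.63 for IL1A, -2.25 for SOCS1, -1.73 for NFKBIZ, -1.62 for CEBPB, -1.51 for SOCS3, -1.41 for IL6ST and -0.88 for CEBPD, while HNF4A (3.07), IL1R2 (2.98) and TNFRSF1B (2.89) were positive. The values for WFDC2, TNF, IL1A, TNFRSF1B and IL1R2 rest on at most 10 reads in any EV library. All values printed here include EV replicate 3, and the size of several depends on it. Without that library the subtracted term, EHF over EV, went from 0.17 to 1.66 for CD55 and from 1.27 to 0.50 for TNFRSF1B. The call for HPX was lost when EV replicate 2, EHF replicate 2 or 3, CDX1 replicate 2 or EHF+CDX1 replicate 1 or 2 was left out, that for IL1R2 without EV replicate 1 or 2 or EHF replicate 2 or 3, that for TNFRSF1B without EV replicate 1, and that for WFDC2 without EHF replicate 3. With limma voom and on the deposited log2 RPKM the calls for CD59, CEBPB and CEBPD were lost, with DESeq2 those for CD59 and HPX, and on the deposited log2 RPKM those for C5 and IL1A. The other 16 of the 25 calls held in all alternatives that gave a value.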

How the results depend on the processing

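Counts of called list genes, 12 in EHF over EV cells in the report, were 7 with limma voom, 6 with DESeq2, 26 in the test against no change and 5 when only the libraries of the 2 lines were fitted, beside 8.33% of all genes in the report and 6.33%, 6.69%, 30.1% and 5.5%, so against no change the 26 of 102 were below the share of all genes. For EHF+CDX1 over EV the 18 calls became 36 against no change and 8 with only those libraries, beside 10.4%, 33.6% and 7.24% of all genes. For EHF+CDX1 over EHF the 7 became 14 and 12, beside 2.68%, 9.78% and 4.96%. Leaving out each library gave ranges of 7 to 32, 8 to 37 and 3 to 9 for these, 45 to 57 for CDX1 over EV (57 in the report), 42 to 60 for EHF+CDX1 over CDX1 (53) and 41 to 59 for the interaction (48), and the upper end came without EV replicate 3 except for CDX1 over EV. Against EV in CDX1 cells, LCN2 turned from -0.36 to 0.12 with limma voom and 0.52 on the deposited log2 RPKM. With a library left out, LCN2 ranged from -0.79 to 1.37 and CCL20 from -0.95 to 6.78, both positive without EV replicate 3, and SAA2 from -0.053 (without CDX1 replicate 2) to 1.84. The cause was not tested. No other fold change of a member changed sign.

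With the replicate number as a block, the counts were 9, 53, 16, 6 and 51 in the 5 comparisons and 48 for the interaction. The shares of all genes were 7.68%, 44%, 9.84%, 2.38%, 40.6% and 37.5% in the same order. Of 18 pairs of same-numbered libraries, 0 correlated over 0.1 (-0.065 to 0.08), so the libraries share only a number. Of 49 calls of named genes over EV, 34 held in all alternatives that gave a value.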
